A study of Homo sapiens with 12 samples.

Results

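The genes described here encode the core, the activators, the inhibitor, the ubiquitin-conjugating enzymes and the direct effectors of the anaphase-promoting complex, or cyclosome (APC/C). They are the 10 genes CDC20, FZR1, FBXO5, UBE2C, UBE2S, PTTG1, ESPL1, CDC27, ANAPC1 and CDC16, taken by gene symbol from the 58174 genes of the table. Each was found once, and all 10 were among the 13458 genes tested, which are those with at least 1 FPKM in at least 2 of the 12 libraries. FPKM, the unit of every level below, counts fragments scaled for the length of the transcript and for the fragments mapped in that library, so levels can be set side by side between genes. The RNA came from HCT116, an established human colorectal carcinoma cell line. The cells were exposed to dolastatin 15, a tubulin-binding peptide that stops microtubules from assembling, dissolved in DMSO. The groups were 20 nM dolastatin 15 for 16 h (libraries 1 and 2), 100 nM for 16 h (libraries 3 and 4), solvent for 16 h (libraries 5 and 6), 20 nM for 24 h (libraries 7 and 8), 100 nM for 24 h (libraries 9 and 10) and solvent for 24 h (libraries 11 and 12). Solvent libraries received DMSO alone, and the labels give the treatments as made in duplicate without saying whether duplicates were separate cultures, so p-values here cover the spread between these 12 samples alone, which may be technical.

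The APC/C is an E3 ubiquitin ligase built of many subunits that marks mitotic proteins for destruction by the proteasome. CDC20 activates it in mitosis, once the spindle assembly checkpoint is satisfied, and FZR1 (also called CDH1) activates it at mitotic exit and in G1. FBXO5 (EMI1) inhibits the complex in S and G2 phase, UBE2C places the first ubiquitins on substrates, and UBE2S extends the chains. Destruction of securin, encoded by PTTG1, frees separase, encoded by ESPL1, which then cuts cohesin and lets sister chromatids part. Agents that disturb microtubules keep the spindle checkpoint active and hold cells in mitosis, and many of these genes are transcribed in phases of the cell cycle through promoter elements such as the CHR (cell cycle genes homology region) and the CCAAT box. In bulk RNA, fewer cells in a phase and less RNA per cell cannot be told apart, and no protein was measured.

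Promoter sequences from RefSeq on GRCh38.p14, each from 250 bases before to 50 bases after an annotated start, are shown for 5 genes whose RNA moved at 16 h: CDC20, UBE2S and PTTG1, which rose, and FZR1 and FBXO5, which fell. Of the 10 genes, 9 had an entry, with 12 entries in all, and UBE2C had none. Searched on both strands were the CHR, as TTTGAA or TTCGAA, the CCAAT box, as CCAAT, and an E2F-type motif, as TTTNNCGC. Capitals mark the matches, and a reverse-strand match appears as its reverse complement, such as ATTGG.
CDC20 promoter, chr1:43358731-43359030, plus strand: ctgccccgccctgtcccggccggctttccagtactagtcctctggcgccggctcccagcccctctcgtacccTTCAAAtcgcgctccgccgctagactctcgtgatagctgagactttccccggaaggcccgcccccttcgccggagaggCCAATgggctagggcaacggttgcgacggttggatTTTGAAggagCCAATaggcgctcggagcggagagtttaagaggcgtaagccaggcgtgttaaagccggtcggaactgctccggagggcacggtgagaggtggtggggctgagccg
UBE2S promoter, chr19:55407739-55408038, minus strand: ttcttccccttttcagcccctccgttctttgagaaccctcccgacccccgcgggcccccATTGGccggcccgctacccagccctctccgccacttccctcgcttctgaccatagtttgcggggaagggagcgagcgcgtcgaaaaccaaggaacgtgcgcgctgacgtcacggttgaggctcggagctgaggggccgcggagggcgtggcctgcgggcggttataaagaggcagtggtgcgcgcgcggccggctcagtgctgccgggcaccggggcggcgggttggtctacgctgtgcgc
PTTG1 promoter, first entry, chr5:160421605-160421904, plus strand: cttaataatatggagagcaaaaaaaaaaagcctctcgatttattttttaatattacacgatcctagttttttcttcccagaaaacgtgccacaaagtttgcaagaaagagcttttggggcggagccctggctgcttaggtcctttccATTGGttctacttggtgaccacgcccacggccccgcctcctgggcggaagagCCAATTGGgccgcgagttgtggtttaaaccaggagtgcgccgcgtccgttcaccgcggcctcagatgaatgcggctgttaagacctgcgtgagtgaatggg
FZR1 promoter, first entry, chr19:3506061-3506360, plus strand: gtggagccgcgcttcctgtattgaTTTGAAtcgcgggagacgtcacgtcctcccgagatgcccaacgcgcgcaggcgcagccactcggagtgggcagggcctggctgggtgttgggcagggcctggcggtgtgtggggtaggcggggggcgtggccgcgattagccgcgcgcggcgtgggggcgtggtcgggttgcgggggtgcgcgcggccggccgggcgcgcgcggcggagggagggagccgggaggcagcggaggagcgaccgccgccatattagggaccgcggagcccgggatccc
FBXO5 promoter, second entry, chr6:152982992-152983291, minus strand: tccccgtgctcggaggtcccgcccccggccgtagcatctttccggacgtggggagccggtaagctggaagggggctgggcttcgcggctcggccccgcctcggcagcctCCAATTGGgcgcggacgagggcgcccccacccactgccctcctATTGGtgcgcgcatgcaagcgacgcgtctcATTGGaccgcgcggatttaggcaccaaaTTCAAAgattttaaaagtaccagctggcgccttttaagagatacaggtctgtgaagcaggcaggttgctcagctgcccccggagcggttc

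In the CDC20 window, a CHR match lay from 65 to 60 bases before the start, between CCAAT matches that began 100 and 55 bases before it. A further CHR match lay from 178 to 173 bases before the CDC20 start. The FBXO5 window held a CHR match from 40 to 35 bases before the start and 4 CCAAT matches, of which a pair on opposite strands overlap each other. The PTTG1 window had 3 CCAAT matches, of which a pair on opposite strands overlap each other, and no CHR match. UBE2S had 1 CCAAT match, and FZR1 had a CHR match 226 bases before the start and no CCAAT match. Across the genes with an entry, 5 had a CHR match, 7 had a CCAAT match and 2, ESPL1 and CDC16, had an E2F-type match. The CHR match of ANAPC1 lay after the start, at bases 38 to 43. Counted by window, 5 of the 12 entries held a CHR match, 8 a CCAAT match and 2 an E2F-type match. The PTTG1 entries overlap and hold the same 3 CCAAT matches, which thus count in both. Of all 34943 promoters of the same length, 16.4% held a CHR match, 34.6% a CCAAT match, 6.85% an E2F-type match and 6.40% both CHR and CCAAT matches. Among the 5 genes shown, a CHR match stood in CDC20, which rose at 16 h, and in FZR1 and FBXO5, which fell, and in neither UBE2S nor PTTG1, which rose. The other entries of FZR1 and FBXO5 held no match to any of the motifs. A match is a description of letters in the window and not a measured binding site.

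At 16 h genes of the set moved both ways, within roles as well as between them. CDC20, UBE2S and PTTG1 rose with both doses, FZR1, FBXO5 and UBE2C fell with both doses, and CDC16 rose with 100 nM. A gene was called when its adjusted p, from limma on log2(FPKM + 1) with Benjamini-Hochberg adjustment over all tested genes, was under 0.05. With 20 nM for 16 h, 3 of the 10 genes were called higher and 3 lower, where 17.7% of all tested genes were called, 6.78% higher and 11% lower. With 100 nM for 16 h, 4 were called higher and 3 lower, where 23.8% of all tested genes were called, 9.16% higher and 14.7% lower. By 24 h the set had a different make-up. With 20 nM, CDC16 was called higher and FZR1, UBE2C and ESPL1 lower, where 28.8% of tested genes were called, 14.7% higher and 14.1% lower. With 100 nM, CDC20, UBE2S, PTTG1 and CDC16 were called higher and FZR1, UBE2C, ESPL1 and CDC27 lower, where 33.8% of tested genes were called, 15.4% higher and 18.4% lower. With libraries rescaled to a common sum or a common nuclear sum, the split of all calls at 24 h leaned further to lower ones. The common sum gave 573 genes higher and 4662 lower with 20 nM, and 1146 higher and 3725 lower with 100 nM. As deposited these were 1984 and 1896, and 2075 and 2475. Rescaled to a common nuclear sum, that is without mitochondrial genes, the 24 h splits were 1331 higher and 2684 lower with 20 nM and 1439 higher and 3335 lower with 100 nM. The 24 h splits under median-of-ratios scaling are not given. At 16 h, median-of-ratios scaling gave 1226 higher and 1226 lower with 20 nM and 1601 higher and 1689 lower with 100 nM, and the common sum gave 911 higher and 2378 lower with 100 nM, against 912 and 1476, and 1233 and 1972, as deposited.

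**Figure D1:**
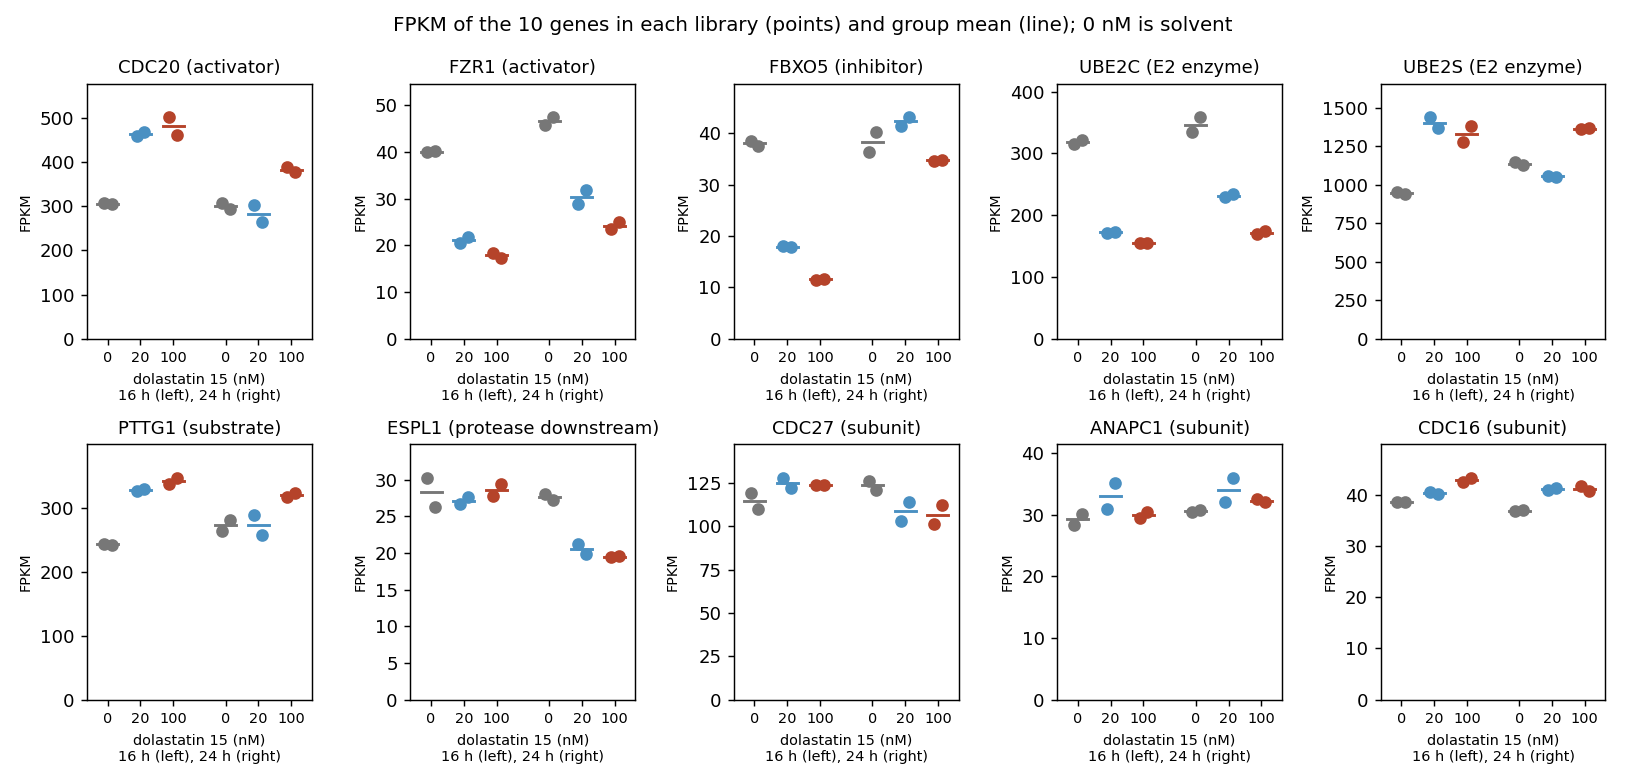
FPKM of each of the 10 genes (y axis, from 0) in each of the 12 libraries by dose of dolastatin 15 (x axis, in nM, with 0 nM for solvent) at 16 h and 24 h, with points for libraries and lines for group means. FBXO5 reads 11.5 and 11.6 FPKM with 100 nM for 16 h and 34.6 and 34.9 FPKM with 100 nM for 24 h.

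The activators moved in opposite directions at 16 h. CDC20 (ENSG00000117399, chr1:43358955-43363203 on GRCh38, plus strand) read 459 and 468 FPKM with 20 nM for 16 h, against 308 and 304 FPKM in solvent. At 100 nM for 16 h it read 502 and 460.5 FPKM. All 4 treated libraries lay above both solvent libraries, and the doses overlapped. The log2 change was 0.60 (SE 0.06, 1.51-fold) with 20 nM, at an adjusted p of 0.000519 by limma, and 0.65 (SE 0.06, 1.57-fold) with 100 nM, at 0.000181. By 24 h CDC20 read 302 and 264 FPKM with 20 nM, against 308 and 293 FPKM in solvent, so these groups overlapped and the log2 change of -0.09 (95% interval -0.23 to 0.06) was not called, at an adjusted p of 0.329. At 100 nM for 24 h it read 389 and 377 FPKM, above both solvent libraries, a log2 change of 0.35 (SE 0.06) at an adjusted p of 0.00343. The CDC20 call absent with 20 nM for 24 h appeared as a decrease without library 7 (adjusted p = 0.0450) and with libraries rescaled to a common sum (adjusted p = 0.0152), and without library 8 its log2 change was 0.01.

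FZR1 (ENSG00000105325, chr19:3506273-3538330, plus strand) fell in every treated group. It read 20.6 and 21.7 FPKM with 20 nM for 16 h, against 39.9 and 40.1 FPKM in solvent, and 18.3 and 17.4 FPKM with 100 nM for 16 h. At 24 h the values were 28.9 and 31.9 FPKM with 20 nM, against 45.7 and 47.5 FPKM in solvent, and 23.5 and 24.9 FPKM with 100 nM. No treated library overlapped the solvent libraries of its time, and at both times the 100 nM libraries lay below the 20 nM libraries. At 16 h the log2 changes were -0.89 (SE 0.06, adjusted p = 3.64e-05 by limma) with 20 nM and -1.12 (SE 0.06, adjusted p = 5.44e-06) with 100 nM. At 24 h they were -0.60 (SE 0.06, adjusted p = 0.000224) with 20 nM and -0.92 (SE 0.06, adjusted p = 1.53e-05) with 100 nM. The gene overlaps MFSD12, which lies on the opposite strand, over 70 of its 5802 exonic bases. MFSD12 had log2 changes of 0.17 (adjusted p = 0.0793), 0.24 (0.0180), -0.15 (0.0847) and 0.04 (0.585) in the same 4 comparisons, so it was called higher with 100 nM for 16 h and called in no other. With 20 nM for 24 h it read 70.8 and 65.4 FPKM, below the 77.0 and 73.9 FPKM in solvent. The part of this overlap in the FZR1 values was not tested.

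Set against each other in each library, the activators gave a ratio that does not depend on how the library was scaled. CDC20 stood at 22.3 and 21.6 times FZR1 with 20 nM for 16 h, against 7.73 and 7.58 times in solvent, and at 27.4 and 26.4 times with 100 nM. By 24 h it stood at 10.4 and 8.29 times FZR1 with 20 nM, against 6.74 and 6.16 times in solvent, and at 16.6 and 15.1 times with 100 nM. At both times the ratio was lowest in solvent and highest with 100 nM, and no library of a group overlapped one of another group at that time.

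**Figure D2:**
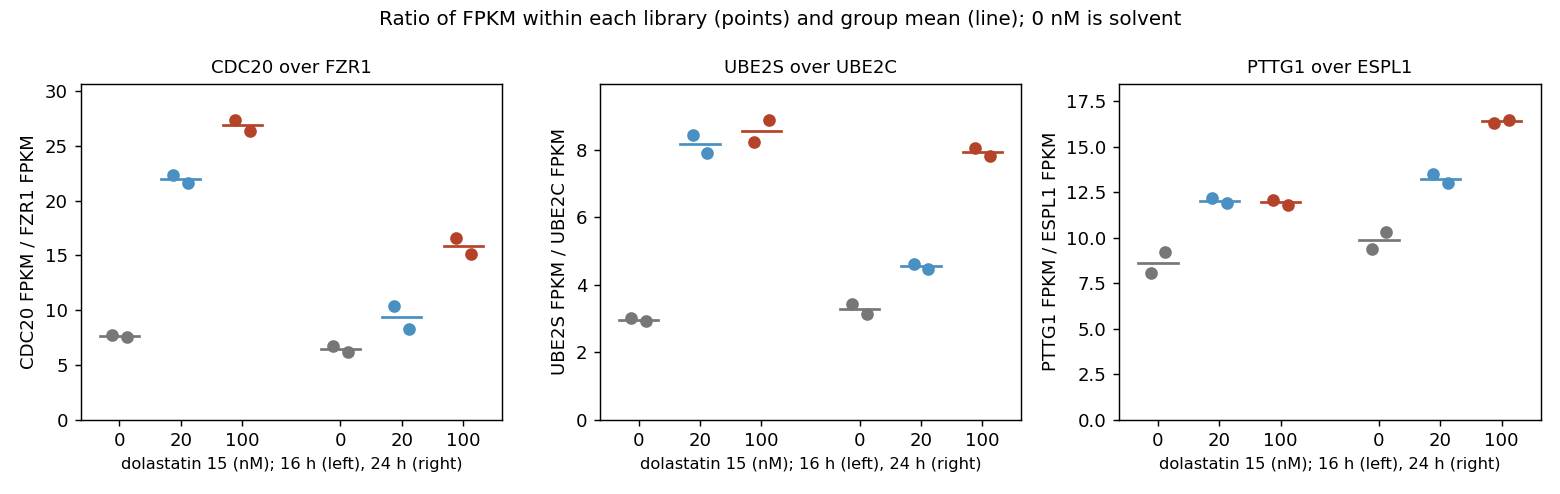
Ratios of FPKM within each library (y axis) for CDC20 over FZR1, UBE2S over UBE2C and PTTG1 over ESPL1, by dose (x axis, in nM, 0 nM being solvent) at 16 h and 24 h, with 1 point per library. CDC20 over FZR1 is 27.4 and 26.4 with 100 nM for 16 h, against 7.73 and 7.58 in solvent.

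FBXO5, the gene of the inhibitor EMI1, had the widest range of the 10, with group means that spanned 1.79 on the log2(FPKM + 1) scale. FBXO5 (ENSG00000112029, chr6:152970519-152983579, minus strand) read 18.0 and 17.9 FPKM with 20 nM for 16 h, against 38.5 and 37.6 FPKM in solvent. The 100 nM libraries at 16 h read 11.5 and 11.6 FPKM, below both other groups. The log2 change was -1.05 (SE 0.05, 0.484-fold, adjusted p = 1.36e-05 by limma) with 20 nM and -1.64 (SE 0.05, 0.321-fold, adjusted p = 6.87e-07) with 100 nM. At 24 h FBXO5 read 41.5 and 43.2 FPKM with 20 nM, against 36.3 and 40.3 FPKM in solvent, and 34.6 and 34.9 FPKM with 100 nM. Both 20 nM libraries were then above and both 100 nM libraries below the solvent libraries, but neither difference was called, with log2 changes of 0.14 (95% interval 0.02 to 0.26, adjusted p = 0.0714) and -0.14 (95% interval -0.25 to -0.02, adjusted p = 0.0774). The call with 20 nM for 24 h appeared without library 12 (adjusted p = 0.0270), and that with 100 nM without library 11 (adjusted p = 0.0262), with the common sum (0.00652) and with the nuclear sum (0.0164). Rescaled to a common sum, the log2 change with 20 nM for 24 h was -0.04.

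The ubiquitin-conjugating enzymes also parted. UBE2C (ENSG00000175063, chr20:45812576-45816957, plus strand), which starts the chains, fell in every treated group. At 16 h it read 171 and 173 FPKM with 20 nM, against 315 and 321 FPKM in solvent, and 155 FPKM in both 100 nM libraries. At 24 h it read 229 and 234 FPKM with 20 nM, against 334 and 359 FPKM in solvent, and 169 and 174 FPKM with 100 nM. No treated library overlapped solvent, and log2 changes at 16 h were -0.89 (SE 0.04, adjusted p = 9.99e-06 by limma) with 20 nM and -1.03 (SE 0.04, adjusted p = 1.52e-06) with 100 nM. At 24 h they were -0.58 (SE 0.04, adjusted p = 5.13e-05) with 20 nM and -1.01 (SE 0.04, adjusted p = 1.44e-06) with 100 nM.

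UBE2S (ENSG00000108106, chr19:55399745-55407777, minus strand), which extends the chains, had the highest level of the 10 genes in each of the 12 libraries. It read 1439 and 1366 FPKM with 20 nM for 16 h, against 949.9 and 937 FPKM in solvent, and 1276 and 1381 FPKM with 100 nM. The treated libraries all lay above solvent, and log2 changes were 0.57 (SE 0.04, adjusted p = 7.14e-05 by limma) with 20 nM and 0.49 (SE 0.04, adjusted p = 8.90e-05) with 100 nM. At 24 h UBE2S read 1058 and 1049 FPKM with 20 nM, against 1146 and 1127 FPKM in solvent, a log2 change of -0.11 (95% interval -0.21 to -0.01) that was not called, at an adjusted p of 0.0844. This decrease was called with the common sum (adjusted p = 0.000542), with the nuclear sum (0.0145) and without library 3 or library 4, where the adjusted p was 0.0486 to 0.0487. With 100 nM for 24 h it read 1359 and 1364 FPKM, above solvent, a log2 change of 0.26 (SE 0.04) at an adjusted p of 0.00202. On the opposite strand RPL28 spans part of UBE2S but shares 0 of its 2788 exonic bases. RPL28 ranged from 2619 to 3618 FPKM and had log2 changes of 0.06 (adjusted p = 0.621) and 0.05 (0.682) at 16 h and of 0.24 (0.0450) and 0.24 (0.0404) at 24 h, with 20 nM and 100 nM in turn.

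Within a library, UBE2S stood at 8.43 and 7.90 times UBE2C with 20 nM for 16 h, against 3.01 and 2.92 times in solvent, and at 8.25 and 8.90 times with 100 nM. At 24 h it stood at 4.61 and 4.48 times UBE2C with 20 nM, against 3.43 and 3.14 times in solvent, and at 8.05 and 7.82 times with 100 nM. The doses overlapped in this ratio at 16 h and not at 24 h.

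PTTG1 was called higher at 16 h with both doses and at 24 h with 100 nM, and ESPL1 was called lower at 24 h alone, with both doses. PTTG1 (ENSG00000164611, chr5:160421822-160428744, plus strand), the securin gene, read 326 and 329 FPKM with 20 nM for 16 h, against 244 and 242 FPKM in solvent. At 100 nM for 16 h it read 337 and 347 FPKM. Every treated library at 16 h was above solvent, with log2 changes of 0.43 (SE 0.05, adjusted p = 0.000972 by limma) and 0.49 (SE 0.05, adjusted p = 0.000278). At 24 h PTTG1 read 288 and 258 FPKM with 20 nM, against 264 and 280.4 FPKM in solvent, so the groups overlapped, with a log2 change of 0.00 (95% interval -0.11 to 0.12, adjusted p = 0.977). Rescaled to a common sum, PTTG1 was called lower with 20 nM for 24 h (log2 change -0.18, adjusted p = 0.0164). With 100 nM for 24 h it read 316 and 323 FPKM, above solvent, a log2 change of 0.23 (SE 0.05) at an adjusted p of 0.00872. That call was lost without library 10 or library 11 (adjusted p = 0.0539 to 0.0648) and with the common sum (0.0564).

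ESPL1 (ENSG00000135476, chr12:53268299-53293643, plus strand), the separase gene, read 26.7 and 27.6 FPKM with 20 nM for 16 h, against 30.3 and 26.3 FPKM in solvent, and 27.8 and 29.4 FPKM with 100 nM. Both treated groups lay inside the solvent range, with log2 changes of -0.05 (95% interval -0.21 to 0.10, adjusted p = 0.623) and 0.02 (95% interval -0.14 to 0.17, adjusted p = 0.892). By 24 h ESPL1 had fallen to 21.2 and 19.9 FPKM with 20 nM, against 28.1 and 27.3 FPKM in solvent, and to 19.4 and 19.6 FPKM with 100 nM. These groups did not overlap solvent, and log2 changes were -0.41 (SE 0.07, adjusted p = 0.00267 by limma) with 20 nM and -0.49 (SE 0.07, adjusted p = 0.000887) with 100 nM. PTTG1 stood at 12.2 and 11.9 times ESPL1 with 20 nM for 16 h, against 8.04 and 9.21 times in solvent, and at 12.1 and 11.8 times with 100 nM. At 24 h it stood at 13.5 and 13.0 times ESPL1 with 20 nM, against 9.40 and 10.3 times in solvent, and at 16.3 and 16.5 times with 100 nM. The ratio was higher in all 8 treated libraries than in the solvent libraries of the same time.

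Over the 6 group means the core subunits had the narrowest spans of the 10 genes, 0.21 to 0.23 on the log2(FPKM + 1) scale, although in single comparisons others moved less, such as ESPL1 at 16 h and PTTG1 with 20 nM for 24 h. CDC27 (ENSG00000004897, chr17:47117703-47189422, minus strand), a repeat-containing scaffold subunit that receives the activators, read 128 and 122 FPKM with 20 nM for 16 h, against 119 and 110.2 FPKM in solvent, and 124 FPKM in both 100 nM libraries. Neither change was called, with log2 changes of 0.13 (95% interval -0.02 to 0.27) and 0.11 (95% interval -0.04 to 0.26). At 24 h it read 103 and 114 FPKM with 20 nM, against 126 and 121 FPKM in solvent, and 101 and 112 FPKM with 100 nM, so all 4 treated libraries were below solvent. The decrease with 100 nM was called (log2 change -0.22, SE 0.07, adjusted p = 0.0321 by limma), and that with 20 nM was not (-0.19, SE 0.07, adjusted p = 0.0584). The call with 100 nM was lost without library 9, 11 or 12 (adjusted p = 0.0757 to 0.199), with no filter on low values (0.0738), with median-of-ratios scaling (0.0539), with a constant prior (0.0521) and with the 24 h libraries alone (0.0790). The 20 nM decrease was called without library 8 (adjusted p = 0.0311), with the common sum (0.00202), with the nuclear sum (0.0245), with a minimum of 5 FPKM (0.0489) and with protein-coding genes only (0.0479).

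CDC16 (ENSG00000130177, chr13:114234887-114272723, plus strand), another repeat-containing scaffold subunit, read 40.6 and 40.2 FPKM with 20 nM for 16 h, against 38.7 FPKM in both solvent libraries, and 42.5 and 43.4 FPKM with 100 nM. At 24 h it read 41.0 and 41.4 FPKM with 20 nM, against 36.9 and 37.0 FPKM in solvent, and 41.8 and 40.7 FPKM with 100 nM. The treated libraries were all above solvent, by a log2 change of 0.06 (SE 0.04, adjusted p = 0.280 by limma, not called) with 20 nM and 0.15 (SE 0.04, adjusted p = 0.0194) with 100 nM at 16 h. At 24 h it was 0.15 (SE 0.04) for each dose, with adjusted p of 0.0132 and 0.0106. The 16 h call was lost without library 3, 4, 5 or 6 (adjusted p = 0.0524 to 0.0976) and with the common sum (0.0617). At 24 h the 20 nM call was lost without library 11 or 12 (adjusted p = 0.0567 to 0.0678), with the nuclear sum (0.115) and with the 24 h libraries alone (0.0620), and with the common sum the log2 change was -0.03. The 100 nM call was lost without library 9 or 11 (adjusted p = 0.0542 to 0.0749), with the common sum (0.240), with the nuclear sum (0.102) and with the 24 h libraries alone (0.0525). ANAPC1 (ENSG00000153107, chr2:111611639-111884690, minus strand), the largest scaffold subunit, ranged from 29.5 to 36.0 FPKM in the 8 treated libraries and from 28.4 to 30.7 FPKM in the 4 solvent libraries. It was called in none of the 4 comparisons, with log2 changes of 0.17 (95% interval 0.01 to 0.33), 0.03 (-0.13 to 0.20), 0.15 (-0.02 to 0.31) and 0.08 (-0.09 to 0.24). Of the adjusted p for ANAPC1, the lowest was 0.140, with 20 nM for 16 h, where the unadjusted p was 0.0424.

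**Figure D3:**
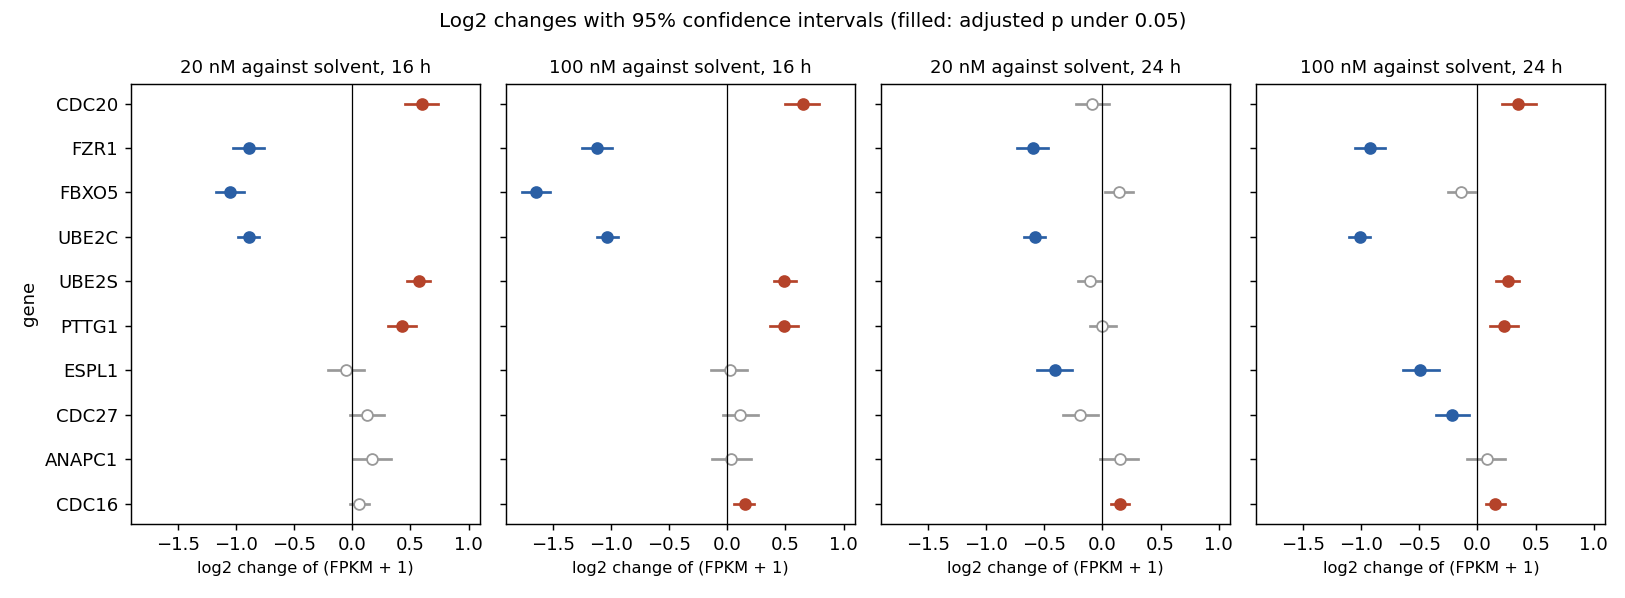
Log2 change of each gene (y axis: gene) against solvent of the same time on the log2(FPKM + 1) scale (x axis), for both doses at 16 h and 24 h, with bars for 95% intervals and filled points for calls. FBXO5 lies at -1.64 with 100 nM for 16 h and at -0.14 with 100 nM for 24 h, while CDC27, ANAPC1 and CDC16 lie between -0.22 and 0.17.

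The doses differed in few of these genes at 16 h and in more at 24 h. At 16 h, 1 of the 10 was called between 100 nM and 20 nM, where 0.320% of all tested genes were called, 0.0446% higher and 0.275% lower. That gene was FBXO5, with 11.5 and 11.6 FPKM at 100 nM, against 18.0 and 17.9 FPKM at 20 nM, a log2 difference of -0.59 (SE 0.05, adjusted p = 0.00383 by limma), which was called in every other fit too. For the others at 16 h the log2 differences ran from -0.23 for FZR1 (95% interval -0.36 to -0.10, adjusted p = 0.161) to 0.08 for CDC16 (95% interval 0.00 to 0.17, adjusted p = 0.391). At 24 h, 3 were called higher and 3 lower with 100 nM than with 20 nM, where 4.88% of all tested genes were called, 1.82% higher and 3.06% lower. Higher with 100 nM were CDC20 (0.44, SE 0.06, adjusted p = 0.0108), UBE2S (0.37, SE 0.04, adjusted p = 0.00456) and PTTG1 (0.23, SE 0.05, adjusted p = 0.0439). Lower with 100 nM were UBE2C (-0.43, SE 0.04, adjusted p = 0.00220), FZR1 (-0.32, SE 0.06, adjusted p = 0.0231) and FBXO5 (-0.28, SE 0.05, adjusted p = 0.0252). For each of the 6, neither library of 1 dose overlapped a library of the other. The calls were fragile: fitted with limma to the 24 h libraries alone, 0 of the 6 were called, with adjusted p from 0.0641 to 0.169. Of all tested genes, 9 were called in that fit. At an unadjusted p under 0.05 it had 3 higher and 3 lower among the 10. The share of all genes at that unadjusted threshold is not given, so this count says nothing about the set. Without library 9 a single gene, UBE2C, was called, without library 10 there were 2 and without library 8 there were 3. The PTTG1 call was lost without any 1 library other than library 7 (adjusted p = 0.0553 to 0.175). The split of all genes also turned with scaling, with 797 higher and 166 lower under the common sum, and by median of ratios 382 were higher and 289 lower, against 245 higher and 412 lower as deposited.

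Time alone brought few calls among these genes as deposited. Between solvent libraries at 24 h and at 16 h, 1 of the 10 genes was called, where 5.62% of all tested genes were called, 3.14% higher and 2.47% lower. UBE2S read 1146 and 1127 FPKM in solvent at 24 h, against 949.9 and 937 FPKM in solvent at 16 h, a log2 difference of 0.27 (SE 0.04, adjusted p = 0.0144 by limma). The call was lost without library 5, 6, 11 or 12, with adjusted p from 0.0726 to 0.0941. For the other 9 the log2 differences lay between -0.06, for CDC16, and 0.21, for FZR1 (95% interval 0.08 to 0.35, adjusted p = 0.0631). With the common sum FZR1 (adjusted p = 0.0306 by limma), UBE2C (0.0287) and PTTG1 (0.0339) were called higher too. Of all tested genes, 975 were then higher and 212 lower. A minimum of 5 FPKM also gave a call for FZR1 (adjusted p = 0.0491). Without library 7 or library 8, FZR1 (adjusted p = 0.0325 to 0.0327) and PTTG1 (0.0288) were called higher as well.

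The effect of the drug changed between times in several genes, tested as the difference of the log2 changes at 24 h and at 16 h. For 20 nM, 2 genes were called with a higher change at 24 h and 4 with a lower one, where 11.5% of all tested genes were called, 7.06% higher and 4.46% lower, and for 100 nM 1 was called higher and 2 lower, where 10.2% of all tested genes were called, 5.87% higher and 4.29% lower. FBXO5 was called for both doses, with a log2 change of 0.14 at 24 h and -1.05 at 16 h with 20 nM, and of -0.14 at 24 h and -1.64 at 16 h with 100 nM. CDC20, UBE2S and PTTG1 were called for 20 nM, with an increase that was called at 16 h and not at 24 h. UBE2S was also called for 100 nM, where its increase was called at both times (0.49 at 16 h and 0.26 at 24 h). With 100 nM UBE2S averaged 1329 FPKM at 16 h and 1361 FPKM at 24 h, and in solvent 943 and 1137 FPKM. That call was lost with no filter (adjusted p = 0.108 by limma) and with a constant prior (0.0873). UBE2C was called with a higher change for 20 nM (-0.89 at 16 h, -0.58 at 24 h). ESPL1 was called for both doses, with its decrease at 24 h. FZR1 was called for neither, at adjusted p of 0.0546 for 20 nM and 0.153 for 100 nM. Calls appeared for FZR1 with 20 nM without library 7 (adjusted p = 0.0246), for CDC27 with 20 nM without library 8 (0.0345) and with 100 nM without library 7 or 8 (0.0357 to 0.0358), and for CDC20 with 100 nM without library 7 or 8 (0.0233).

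The order of levels among the genes differed between groups. With 100 nM for 16 h, mean FPKM ran UBE2S 1329, CDC20 481, PTTG1 342, UBE2C 155, CDC27 124, CDC16 42.9, ANAPC1 30.0, ESPL1 28.6, FZR1 17.9 and FBXO5 11.6. In solvent at 16 h it ran UBE2S 943, UBE2C 318, CDC20 306, PTTG1 243, CDC27 115, FZR1 40.0, CDC16 38.7, FBXO5 38.1, ANAPC1 29.3 and ESPL1 28.3. Of the neighbours in the solvent order, ANAPC1 (28.4 and 30.1 FPKM) and ESPL1 (30.3 and 26.3 FPKM) overlapped between libraries. CDC16, at 38.7 FPKM in both libraries, lay about as close to FBXO5 (38.5 and 37.6 FPKM) as the FBXO5 libraries lay to each other, and the remaining neighbours did not overlap. UBE2C thus stood below CDC20 and PTTG1 with 100 nM and above both in solvent, and FZR1 stood below CDC16, ANAPC1 and ESPL1 with 100 nM and above them in solvent.

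Other genes of the pathway were read from lists drawn up by function with earlier results of these data known, so their counts are not an independent test. BUB1B is in both the checkpoint list and the substrate list. The lists are described here by counts. These stand beside the shares of all tested genes called, 17.7% with 20 nM for 16 h (6.78% higher, 11% lower), 23.8% with 100 nM for 16 h (9.16% higher, 14.7% lower), 28.8% with 20 nM for 24 h (14.7% higher, 14.1% lower) and 33.8% with 100 nM for 24 h (15.4% higher, 18.4% lower). Of 11 further core APC/C subunits, 2 rose and 2 fell with 20 nM for 16 h, 2 rose and 3 fell with 100 nM for 16 h, 4 rose and 0 fell with 20 nM for 24 h (by limma 0 were lower at an unadjusted p under 0.05 as well), and 3 rose and 1 fell with 100 nM for 24 h. The median log2 changes of the list were -0.02, 0.04, 0.18 and 0.08 in that order, beside -0.02, -0.03, 0.00 and -0.02 over all tested genes. CDC26 and ANAPC10 were called higher in all 4 comparisons as deposited, with CDC26 at a mean of 73.5 ± 1.59 FPKM with 100 nM for 24 h, against 54.9 ± 0.820 FPKM in solvent (SD, n = 2 each). ANAPC13 was called lower at 16 h, at 31.3 ± 0.240 FPKM with 100 nM, against 46.6 ± 0.735 FPKM in solvent (log2 change -0.56, SE 0.05, adjusted p = 8.82e-05 by limma, n = 2 each). The 16 h count was small and moved: leaving out library 1, 2, 5 or 6 left 1 or 2 of the 4 called with 20 nM, and leaving out library 3, 5 or 6 left 2 or 3 of the 5 called with 100 nM. The direction of the calls at 24 h with 20 nM depended on scaling. With the common sum the 4 calls were all lower, at a list median of 0.00. The median of all tested genes was then -0.16, with 573 called higher and 4662 lower. With the nuclear sum 4 of the list were higher and 2 lower. CDC26 (adjusted p = 0.241 by limma) and ANAPC10 (0.247) were not called with the common sum. With 100 nM for 16 h the common sum gave 0 higher and 3 lower, and CDC26 (adjusted p = 0.0797) and ANAPC10 (0.0657) lost their calls there too. CDC26 at 16 h also lost its call with no filter (adjusted p = 0.0747 with 20 nM and 0.0667 with 100 nM) and with the 16 h libraries alone (0.0691 and 0.0622), and with 20 nM under a constant prior (0.0539). The calls of CDC26 and ANAPC10 at 16 h, and that of CDC26 with 20 nM for 24 h, were each lost without at least 1 library, at adjusted p of up to 0.168.

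Of 12 spindle checkpoint genes and other APC/C regulators, 10 were tested, and FBXO43 and USP44 were not. With 20 nM for 16 h 2 rose and 2 fell, with 100 nM for 16 h 4 rose and 3 fell, with 20 nM for 24 h 0 rose and 2 fell, and with 100 nM for 24 h 2 rose and 4 fell. At an unadjusted p under 0.05 by limma, 2 were higher with 20 nM for 24 h. Against 28.8% of all tested genes, 2 of 10 called with 20 nM for 24 h was not above the background. Median log2 changes were 0.15, 0.18, 0.09 and 0.04. With the common sum the medians at 24 h were -0.09 and -0.05, where that of all tested genes was -0.16 with 20 nM. The common sum gave 2 higher and 3 lower with 100 nM for 16 h, and 4 calls, all lower, with each dose for 24 h. Over all tested genes, 573 were then higher and 4662 lower with 20 nM for 24 h. With 100 nM for 24 h, 1146 were higher and 3725 lower. BUB1B, which encodes the checkpoint protein BUBR1, and BUB1, a checkpoint kinase, were called higher at 16 h and lower at 24 h, although the BUB1 call with 20 nM for 16 h was lost without library 1, 2, 5 or 6 (adjusted p = 0.0596 to 0.125). BUB1B averaged 89.5 ± 0.693 FPKM with 20 nM for 16 h, against 68.4 ± 0.0212 FPKM in solvent (log2 change 0.38, SE 0.07, adjusted p = 0.00486 by limma, n = 2 each). At 24 h BUB1B averaged 63.2 ± 5.75 FPKM with 20 nM, against 93.0 ± 6.84 FPKM in solvent (log2 change -0.55, SE 0.07, adjusted p = 0.000557 by limma, n = 2 each). In solvent BUB1B itself was called higher at 24 h than at 16 h (log2 difference 0.44, adjusted p = 0.0135 by limma). With 100 nM for 24 h it averaged 72.5 FPKM, below solvent at 24 h and above the 68.4 FPKM in solvent at 16 h. BUB3, a checkpoint subunit, fell to 165 ± 5.54 FPKM with 100 nM for 16 h, against 282 ± 5.41 FPKM in solvent (log2 change -0.77, SE 0.06). TTK, the checkpoint kinase MPS1, fell by 0.41 on the log2 scale with 20 nM for 16 h and by 0.76 with 100 nM for 24 h. Leaving out library 1, 2, 5, 11 or 12 left 4 of the 7 calls with 100 nM for 16 h, leaving out library 7 or 8 gave 4 or 5 calls in place of 2 with 20 nM for 24 h, and leaving out library 11 left 3 of the 6 with 100 nM for 24 h.

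APC/C substrates, 26 genes and all tested, had more higher than lower calls at 16 h and more lower than higher calls at 24 h. With 20 nM for 16 h 10 rose and 5 fell, and with 100 nM for 16 h 11 rose and 6 fell. At 16 h 6.78% of all tested genes were called higher with 20 nM and 9.16% with 100 nM. With 20 nM for 24 h 3 rose and 15 fell, where 14.1% of all tested genes were called lower, and with 100 nM for 24 h 4 rose and 12 fell, where 18.4% were. The median log2 changes were 0.09, 0.13, -0.16 and -0.11. Between solvent libraries at 24 h and at 16 h, 4 of the 26 were called higher and 0 lower. Of all tested genes, 3.14% were called higher and 2.47% lower there. Under the 3 other scalings 10 or 11 substrates were higher and 5 to 7 lower at 16 h, and 3 to 5 were higher and 11 to 20 lower at 24 h. The 20 lower came from the common sum with 20 nM, where 4662 of the 13458 tested genes were lower. AURKA, a mitotic kinase, averaged 199.6 ± 0.283 FPKM with 100 nM for 16 h, against 112 ± 1.30 FPKM in solvent (log2 change 0.83, SE 0.04, adjusted p = 4.24e-06 by limma, n = 2 each). CCNB1, which encodes cyclin B1, averaged 520.4 ± 13.5 FPKM, against 303 ± 15.1 FPKM, in the same comparison. NUSAP1, a spindle protein gene, fell at 16 h by 0.91 on the log2 scale with 20 nM and by 1.03 with 100 nM, and at 24 h by 0.85 with 100 nM. AURKB, the kinase of the chromosomal passenger complex, fell to 44.2 ± 1.21 FPKM with 100 nM for 24 h, against 86.9 ± 2.44 FPKM in solvent (log2 change -0.96, SE 0.05). CDC6, a replication licensing gene, averaged 67.7 ± 2.30 FPKM with 100 nM for 16 h, against 125 ± 7.20 FPKM in solvent, and 169.8 ± 8.79 FPKM with 20 nM for 24 h, against 124 ± 8.92 FPKM in solvent. CDC25A rose at 24 h with both doses, by 0.41 and 0.53 on the log2 scale, and GMNN, the gene of the licensing inhibitor geminin, rose by 0.32 with 100 nM.

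Among 13 cohesin genes and securin relatives, 11 were tested, and the securin copies PTTG2 and PTTG3P were not. With each dose for 16 h 1 rose and 2 fell, with 20 nM for 24 h 2 rose and 0 fell, and with 100 nM for 24 h 0 rose and 2 fell. At an unadjusted p under 0.05 by limma, 0 were lower with 20 nM and 1 was higher with 100 nM for 24 h. At 24 h these 2 of 11 lay below the 28.8% and 33.8% of all tested genes called, and at 16 h 3 of 11 were called beside 17.7% and 23.8%. Median log2 changes were 0.05, 0.00, 0.07 and -0.04, and with the common sum each dose for 24 h had 4 calls, all lower. Over all tested genes, that scaling called 573 higher and 4662 lower with 20 nM for 24 h. With 100 nM for 24 h it called 1146 higher and 3725 lower. STAG2, a cohesin subunit, fell to 19.3 ± 0.148 FPKM with 100 nM for 16 h, against 31.4 ± 0.0354 FPKM in solvent (log2 change -0.68, SE 0.06, adjusted p = 0.000145 by limma, n = 2 each). SMC3, another cohesin subunit, fell by 0.40 on the log2 scale in that comparison. SMC3 was called higher with 20 nM for 24 h (log2 change 0.17, adjusted p = 0.0120 by limma), but with the common sum its log2 change was -0.01, and the call was lost without library 11 (adjusted p = 0.0689). At 24 h leaving out library 8 or 11 left 1 or 0 of the 2 calls with 20 nM, and leaving out library 9, 11 or 12 left 1 of the 2 with 100 nM.

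**Figure D4:**
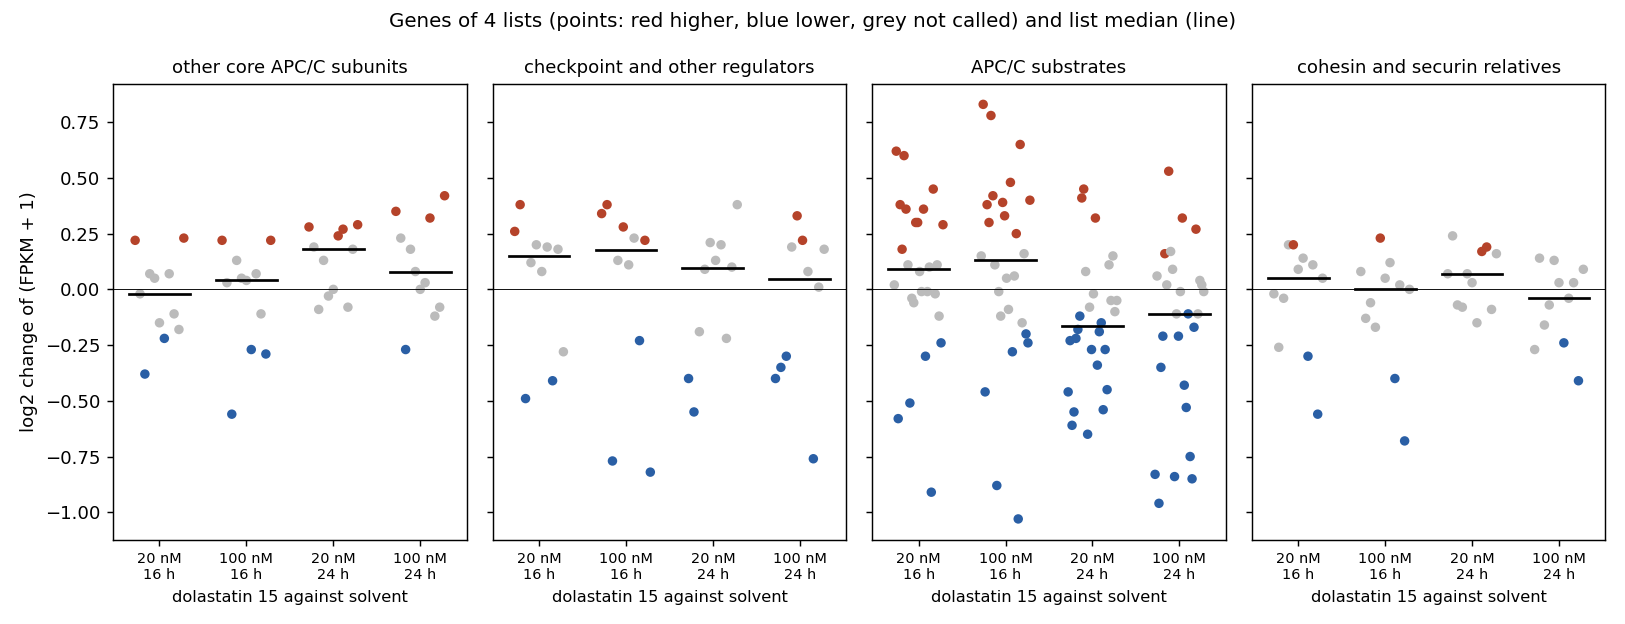
Log2 change against solvent of the same time (y axis, log2(FPKM + 1) scale) of every tested gene in the 4 pathway lists, by dose and time (x axis), with 1 point per gene and a line at the median of the list. The median of the 26 APC/C substrates is 0.09 and 0.13 at 16 h, with 20 nM and 100 nM in turn, and -0.16 and -0.11 at 24 h.

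The genes whose profile was most like that of each of the 10 were found by the root mean square difference of centred log2(FPKM + 1) values over the 12 libraries, for genes whose group means spanned at least 0.5. TUBB, a beta-tubulin gene, was nearest to FZR1 (0.076), at a mean of 431 FPKM with 100 nM for 16 h, against 958 FPKM in solvent. CALHM2 (0.096) and TP73 (0.097) followed. For CDC20 the nearest were MAFK (0.073), SIK1 (0.074) and KCNK5 (0.077). SP1 (0.125), SLC38A2 (0.127) and MTFR2 (0.168) were nearest to FBXO5, and SP1 averaged 8.76 FPKM with 100 nM for 16 h, against 24.2 FPKM in solvent. UBE2C was nearest to SLC29A1 (0.069), CALM2 (0.075) and ORAI1 (0.083), UBE2S to HEXIM1 (0.080), ZNF174 (0.082) and ZNFX1 (0.088), and ESPL1 to LRRC41 (0.053), TTC13 (0.055) and GPR157 (0.061). The group means of PTTG1 spanned 0.49, and those of CDC27, ANAPC1 and CDC16 spanned 0.21 to 0.23, below that limit.

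Near-identical copies could take reads from their parent genes. Of 14 annotated copies or relatives of the 10 genes, 12 stayed at or below 0.670 FPKM in every library, while CDC20P1 ranged from 4.41 to 9.30 FPKM and UBE2SP1 from 2.85 to 6.76 FPKM. CDC20P1 had a log2 change of 0.43 with 20 nM for 16 h (adjusted p = 0.0570 by limma) and UBE2SP1 of 0.64 with 100 nM for 16 h (adjusted p = 0.0614). Neither was called against solvent at either dose or time. CDC20P1 was called, in the direction of CDC20, for 100 nM against 20 nM at 24 h (0.63, adjusted p = 0.0357 by limma). The same held for the change of the 20 nM effect (-0.72, adjusted p = 0.0429). The levels of both copies stand beside 264 FPKM or more for CDC20 and 937 FPKM or more for UBE2S.

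The libraries summed to between 911720 and 1049886 FPKM, with 20368 to 21519 genes above 0, and their read depth is unknown. Mitochondrial genes took 17.9% to 25.8% of the sum. At 24 h both differed between groups. Solvent summed to 911720 and 929715 FPKM (17.9% and 18.6% mitochondrial), 20 nM to 1048249 and 1049886 (23.8% and 25.8%) and 100 nM to 978510 and 989986 (18.8% and 20.7%). At 16 h the sums ran from 948393 to 992039 FPKM. The cause of the 24 h gap was not tested. In every library 6 of 8 colorectal epithelial markers were above 1 FPKM, and VIL1 (0.0600 to 0.220 FPKM) and KRT20 (0.410 to 0.820 FPKM) were low. Of 8 markers of fibroblasts, endothelium and blood cells, COL1A1 alone exceeded 1 FPKM in every library, CD3E and DCN were at 0 in 11 of the 12, and the 8 together summed to 3.37 to 3.57 FPKM with 100 nM for 24 h, against 4.29 to 5.28 FPKM in solvent, and to 2.44 to 2.92 FPKM with 100 nM for 16 h, against 4.08 to 4.46 FPKM in solvent. Their part in the results was not tested.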

How the data were processed

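RNA from HCT116 cells in 6 groups of 2 libraries was measured by sequencing of poly(A)-selected RNA with a directional kit, per the labels' protocols. The authors deposited 1 table of FPKM per gene and library, with RSEM 1.2.28 on GRCh38 per the submitters' processing notes. The annotation and the strand setting were not given in the sources used here, and genes with near-identical copies or with partners on the opposite strand are uncertain. GENCODE 29 gave symbols to 57836 of 58174 genes. Low values showed no steps of whole reads, so depth is unknown and no counting interval could be set.

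The 13458 genes that reached 1 FPKM in 2 or more libraries were tested as log2(FPKM + 1), a scale that understates changes of low genes. The model was fitted with limma 3.58.1 (R 4.3.3) to 6 group means over all 12 libraries with a mean-dependent prior (6 residual and 2.98 prior degrees of freedom), with 9 two-sided contrasts and calls where the p adjusted by Benjamini-Hochberg was under 0.05. The fit was also run on simulated data, with independent noise drawn from its own estimates of spread. That run does not bear on scaling or on whether 2 libraries a group are enough. Intervals are 95% and unadjusted. The column names carry a library number and the group, so libraries entered without pairing.

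The 10 genes and the pathway lists were chosen with earlier results of these data known. All 10 genes are named. From each list, up to 2 called genes with the largest increase and up to 2 with the largest decrease per comparison could be named, and likeness was given for the 3 nearest genes. Promoters came from RefSeq on GRCh38.p14. Within a group, 1.00% to 1.20% of tested values were identical, and no library was taken for a copy. Figures were drawn with matplotlib 3.10.9.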

Additional observations from a re-analysis of the deposited data

Results flagged for a closer look

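The effect of 20 nM dolastatin 15 on 6 of the 10 genes differed between 24 h and 16 h, and that of 100 nM on 3. Of all tested genes, 11.5% were called for 20 nM and 10.2% for 100 nM. Each effect was tested as the difference of the log2 changes in the limma fit with Benjamini-Hochberg adjustment over all tested genes. FBXO5 changed by 0.14 at 24 h and -1.05 at 16 h with 20 nM, a difference of 1.19 (SE 0.07, adjusted p = 0.000116 by limma), and by -0.14 at 24 h and -1.64 at 16 h with 100 nM, a difference of 1.5 (SE 0.07, adjusted p = 3.99e-05). CDC20 changed by -0.09 at 24 h and 0.60 at 16 h with 20 nM, a difference of -0.69 (SE 0.09, adjusted p = 0.00293). UBE2S had a difference of -0.68 with 20 nM (SE 0.06, adjusted p = 0.000755) and of -0.23 with 100 nM (SE 0.06, adjusted p = 0.0431). PTTG1 had a difference of -0.43 with 20 nM (SE 0.07, adjusted p = 0.00872). UBE2C, which was lower at both times, had a difference of 0.31 with 20 nM (SE 0.06, adjusted p = 0.0108). ESPL1 had a difference of -0.36 with 20 nM (SE 0.09, adjusted p = 0.0439) and of -0.50 with 100 nM (SE 0.09, adjusted p = 0.0137).

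At 16 h FBXO5 was lower in 4 of 4 treated libraries, and CDC20, UBE2S and PTTG1 were higher in 4 of 4. The calls of FBXO5 with both doses, and of CDC20, UBE2S and PTTG1 with 20 nM, held in every fit that could give them. UBE2C with 20 nM was not called with the common sum (adjusted p = 0.153). ESPL1 with 20 nM lost its call without library 1, 2, 3, 4, 6, 8, 9, 10, 11 or 12 (adjusted p = 0.0556 to 0.130), with no filter (0.0908) and with a constant prior (0.0621), and ESPL1 with 100 nM without library 9 (0.0508). UBE2S with 100 nM lost its call without library 1, 2, 4, 5, 6, 9, 10, 11 or 12 (adjusted p = 0.0550 to 0.121), with no filter (0.108) and with a constant prior (0.0873). For the 100 nM effect of PTTG1 the difference of -0.26 was not called (adjusted p = 0.0594), but it was without library 7 or library 8 (adjusted p = 0.0166 each). These differences rest on separate solvent libraries at each time, and UBE2S in solvent averaged 943 FPKM at 16 h and 1137 FPKM at 24 h.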

How the results depend on the processing

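Results were recomputed with pseudocounts of 0.5 and 0.1, with no filter on low values, with a minimum of 5 FPKM, after rescaling to a common sum, to a common nuclear sum and by median of ratios, with protein-coding genes only, with a constant prior, with each time point fitted alone (only for comparisons within a time point), and without each library in turn, where the lone library left in a group was assumed to vary like the other groups. No paired analysis was possible because the columns of the deposited table carry library numbers and not the sample numbers of the labels. The calls of FZR1 and UBE2C against solvent at both times, and those of FBXO5, CDC20, UBE2S and PTTG1 at 16 h, kept their direction and passed the threshold in all of these fits. With 2 libraries a group and depth unknown, precision rests on the spread between libraries. The cause of the changes below was not tested.

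Leaving out libraries moved the number of all genes called to between 1036 and 2774 for 20 nM at 16 h, 1781 and 3615 for 100 nM at 16 h, 2153 and 3765 for 20 nM at 24 h, 2757 and 5005 for 100 nM at 24 h, 15 and 65 for 100 nM against 20 nM at 16 h, 42 and 1511 for 100 nM against 20 nM at 24 h, 23 and 1437 for solvent at 24 h against 16 h, 705 and 1753 for the change of the 20 nM effect, and 632 and 1787 for the change of the 100 nM effect. Of the 10 genes, 1 to 6 were then called for 100 nM against 20 nM at 24 h, 0 to 3 for solvent between times and 1 to 6 for the change of the 100 nM effect. For 100 nM against 20 nM at 24 h, the libraries of that time alone called 0 of the 10 and 9 of all genes, no filter called 334 genes and a constant prior 411. At 16 h the constant prior called 28 genes between doses and the libraries of that time alone 10. With the common sum, 7 of the 10 were called for 20 nM at 24 h, 4 for solvent between times and 5 for the change of the 100 nM effect. Of all 13458 tested genes it called 5235, 1187 and 1451 in these comparisons, against 3880, 756 and 1368 as deposited. For the change of the 20 nM effect it called 2462 of all genes. The median of all genes was then -0.16 for 20 nM at 24 h and -0.14 for the change of the 20 nM effect. The nuclear sum called 6 of the 10 and 1456 of all genes for the change of the 100 nM effect, and protein-coding genes only called 5 of the 10. A minimum of 5 FPKM called 2 for solvent between times and 5 for the change of the 100 nM effect, and no filter called 326 genes for solvent between times and 1008 for the change of the 20 nM effect. For protein-coding genes only and for a minimum of 5 FPKM, the share of all genes called is not given, so these counts say nothing about the set. The calls gained lay close to the threshold by limma. Between solvent times the gain was FZR1 (adjusted p = 0.0491, minimum of 5 FPKM). For the change of the 100 nM effect the gains were PTTG1 (0.0496 with the minimum, 0.0495 with protein-coding genes) and CDC27 (0.0458 and 0.0456). Split by direction, the change of the 20 nM effect had 346 higher and 2116 lower with the common sum, 625 and 935 with the nuclear sum and 774 and 748 by median of ratios, against 950 and 600 as deposited. The change of the 100 nM effect had 548 and 903 with the common sum and 581 and 875 with the nuclear sum, against 790 and 578. Solvent between times had 975 and 212 with the common sum, 376 and 576 with the nuclear sum and 366 and 523 by median of ratios, against 423 and 333.

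Some log2 changes turned sign, among them CDC16 with 20 nM at 24 h, which was called higher as deposited, and PTTG1 in the same comparison, which was called lower with the common sum (adjusted p = 0.0164). With the common sum, log2 changes at 16 h with 100 nM were -0.02 for ESPL1 and -0.00018 for ANAPC1. At 24 h with 20 nM they were -0.04 for FBXO5, -0.18 for PTTG1, -0.04 for ANAPC1, -0.03 for CDC16 and -0.01 for SMC3, and with 100 nM -0.02 for ANAPC1. Between doses at 24 h they were 0.01 for ESPL1, 0.06 for CDC27 and 0.02 for ANAPC1, between solvent times 0.02 for CDC20 and 0.02 for ESPL1, and for the change of effects -0.09 for CDC16 with 20 nM, and -0.04 for UBE2C, -0.02 for ANAPC1 and -0.05 for CDC16 with 100 nM. With the nuclear sum PTTG1 was at -0.07 with 20 nM at 24 h, FBXO5 at -0.01 between solvent times, and UBE2C at -0.04, ANAPC1 at -0.02 and CDC16 at -0.05 for the change of the 100 nM effect. Median of ratios gave -0.00027 for PTTG1 with 20 nM at 24 h, 0.0034 for CDC27 between doses at 24 h and -0.01 for FBXO5 between solvent times. Without single libraries the ranges that crossed 0 were, against solvent at 16 h, -0.15 to 0.04 for ESPL1 with 20 nM, and -0.08 to 0.11 for ESPL1 and -0.01 to 0.08 for ANAPC1 with 100 nM. At 24 h with 20 nM they were -0.19 to 0.01 for CDC20 and -0.08 to 0.08 for PTTG1. Between doses they were -0.01 to 0.11 for CDC20 and -0.05 to 0.02 for CDC27 at 16 h, and -0.10 to 0.04 for CDC27, -0.15 to 0.01 for ANAPC1 and -0.02 to 0.02 for CDC16 at 24 h. Between solvent times they were -0.06 to 0.01 for CDC20, -0.07 to 0.08 for FBXO5 and -0.13 to 0.07 for ESPL1, and for the change of effects -0.11 to 0.07 for ANAPC1 with 20 nM, and -0.03 to 0.08 for UBE2C and -0.01 to 0.03 for CDC16 with 100 nM.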
